A study of Homo sapiens with 12 samples.

Results

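The interaction of abemaciclib and fulvestrant was measured in CAMA-1 cells, a human line established from breast cancer, positive for the oestrogen receptor (ER) and labelled wild type. It asks, gene by gene, whether both drugs together changed a transcript by as much as their separate changes add up to. The groups were the vehicle DMSO, abemaciclib at 100 nM, which inhibits CDK4/6, fulvestrant at 5 nM, which degrades ER, and the pair given together, and the labels give no separate doses for the combination. All 12 libraries of the study entered, with 3 replicates in each of 4 groups, and polyadenylated RNA was sequenced at its 3′ end, so that reads count transcripts. The question was put to 11803 genes with enough reads, out of 60612 named rows of the count table. The interaction is the log2 level in the combination, minus that with abemaciclib, minus that with fulvestrant, plus that in DMSO. A value of 0 means that the log2 changes add, which is the same as multiplying the folds, and the level this predicts for the combination is called the additive level. A gene was called less than additive when its interaction had the sign opposite to the sum of the single drug changes, and more than additive when it had the same sign. Both calls assume that the combination used the doses of the single drugs, which the labels do not state. Because the sum and the interaction are computed from the same libraries, sampling error alone sets one against the other, and a scatter of these values is a description only. The cells are 1 line, and the study's methods describe the 3 replicates of a group as separate cultures in an experiment done once, so the p values measure the spread between cultures of that experiment.

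CDK4 and CDK6, with a D-type cyclin, phosphorylate the retinoblastoma protein (Rb), and unphosphorylated Rb holds E2F transcription factors inactive at genes of DNA synthesis. The related proteins p107 and p130, within the DREAM complex, repress genes of mitosis through short promoter elements known as CHR. Oestrogen-bound ER activates luminal genes and cyclin D1, the partner of CDK4/6 in these cells, so both drugs act upstream of Rb by different routes.

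Total counts were 3299119 to 5164667 per library. Replicates of a group differed beyond counting noise in every pair, so none was a duplicate, and the third fulvestrant library stood farthest from its own group, with correlations of log counts of 0.970 and 0.978 to the others. Transcripts of the mitochondrial genome took 12.0% to 12.5% of reads in DMSO and 15.6% to 20.6% in the treated groups. Luminal markers (10 of 10 genes tested) summed to 6904 to 7264 CPM (reads scaled to library size) in DMSO and to 8358 to 9519 CPM in the treated groups, whereas 9 immune markers summed to at most 1.73 CPM and 6 endothelial markers to at most 0.846 CPM. Fibroblast markers summed to 17.8 to 37.0 CPM, with 7 of 9 genes at 0 in all libraries, and basal markers to 6.82 to 16.4 CPM. *ESR1*, which encodes ER, was measured at 99.1, 92.2 and 88.5 CPM in DMSO, 103, 98.9 and 106 with abemaciclib, 90.4, 88.3 and 107 with fulvestrant and 83.7, 76.3 and 84.5 with both. In bulk libraries such as these, fewer cells of a kind and less RNA per cell cannot be told apart.

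The interaction passed the threshold (quasi-likelihood F test of edgeR, p adjusted over all genes tested by Benjamini-Hochberg, below 0.05) for 2493 genes, which is 21.1% of those tested. It was positive for 1120 genes (9.49%) and negative for 1373 genes (11.6%). Of the 2493 genes, 2427 (97.4%) were less than additive and 66 (2.65%) were more than additive. The median absolute interaction of the called genes was 0.77 on the log2 scale, against 0.35 over all genes tested, where the median standard error was 0.23. Without the third fulvestrant library 3318 genes were called, of which 3219 were less than additive and 99 more. With an added minimum size of 1 on the log2 scale, 295 positive and 500 negative genes remained. The median signed interaction over all genes was -0.01.

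Each drug alone changed many genes, 4864 (41.2%) for abemaciclib and 6023 (51%) for fulvestrant. Abemaciclib raised 20.5% and lowered 20.7% of all genes, and fulvestrant raised 25.3% and lowered 25.7%. Adding abemaciclib to fulvestrant changed 227 genes (1.92%), of which 192 (1.63%) fell. Among genes that both drugs raised, 1050 of 1701 had a negative interaction and none a positive one. Their median change was 0.82 with abemaciclib, 0.97 with fulvestrant and 0.94 with both, all against DMSO on the log2 scale, where adding would have given a larger rise than either. Among genes that both drugs lowered, 890 of 1840 had a positive interaction, with medians of -0.71, -0.85 and -0.83 in the same order. Both sets were chosen by the interaction, which by itself places the combination short of the sum. Over the whole classes, called or not, the medians were 0.70, 0.86 and 0.90 for the 1701 raised genes and -0.68, -0.90 and -0.96 for the 1840 lowered genes. The combination differed from abemaciclib past the threshold in 441 of the 1050 and 319 of the 890. A further 35 genes that both drugs lowered had a negative interaction, and their medians were -1.96, -3.39 and -7.84. These 35 were all more than additive and make up most of the 66 genes of that kind. Genes called for abemaciclib alone followed the first pattern: 185 of 625 that rose had a negative interaction and 143 of 566 that fell had a positive one. The combination of the 185 lay at a median of 0.05 against DMSO, after 0.72 in abemaciclib alone. These sets, too, were chosen by the interaction. Over all 625 raised genes the medians were 0.59 with abemaciclib, 0.16 with fulvestrant and 0.21 with both. Over all 566 lowered genes they were -0.52, -0.17 and -0.20.

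**Figure D1:**
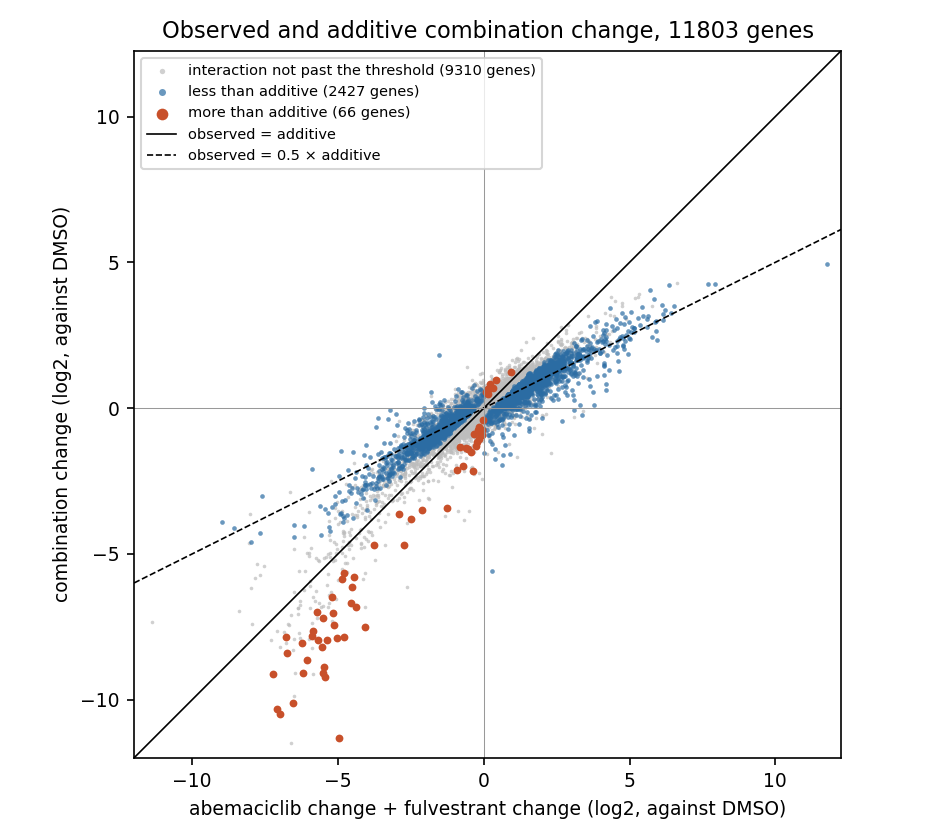
Observed log2 change in the combination (vertical axis) against the sum of the log2 changes of both drugs (horizontal axis), each against DMSO, for 11803 genes. Grey points are genes whose interaction was not past the threshold, blue points the 2427 less than additive and orange points the 66 more than additive. The solid line marks additivity and the dashed line 0.5 times the sum. Many blue points lie between the solid line and the horizontal axis, and some, such as *STC2* and *GDF15*, lie beyond that axis. A group of orange points lies far below the solid line at the lower left.

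**Figure D2:**
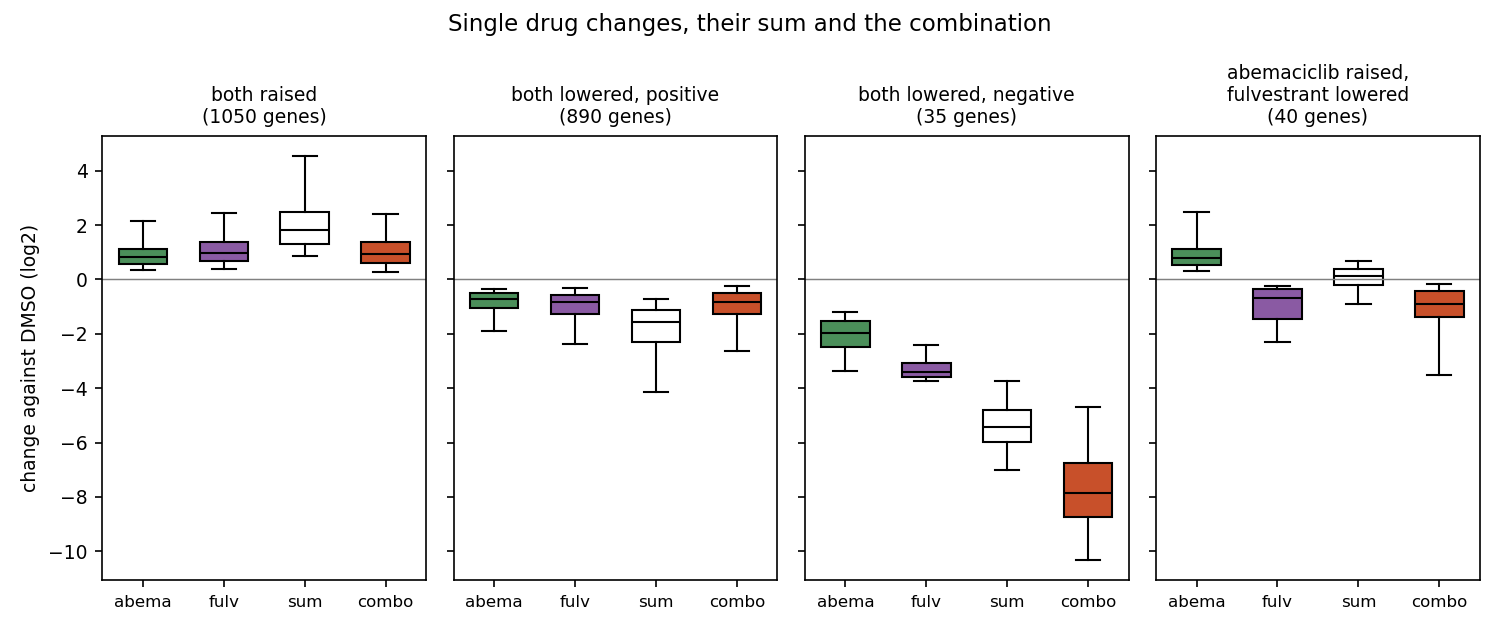
Log2 change against DMSO for abemaciclib (abema), fulvestrant (fulv), their sum and the combination (combo), in 4 sets of genes with an interaction past the threshold. Boxes show the median and quartiles over genes and whiskers the 5th to 95th percentiles. The combination sits beside the single drugs for the 1050 raised and the 890 lowered genes, and below the sum for the other 35 lowered genes.

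The combination was also compared with each drug. Of the 2427 less than additive genes, 62 (2.55%) differed between the combination and fulvestrant past the threshold, a share near the 1.92% of all genes, and of the 66 more than additive genes 40 did. Over the 1050 genes that both drugs raised, the median of the absolute difference from fulvestrant was 0.12, with a median 95% half-width of 0.28 per gene. Over the 890 lowered genes the median was 0.11 and the half-width 0.27. These half-widths carry no adjustment over genes, whereas the threshold does. Changes somewhat larger than them could therefore also go undetected in a single gene. For *CCND1*, a difference from fulvestrant of 0.25 (SE 0.07) was not past the threshold (edgeR adjusted p = 0.097). From abemaciclib, the combination differed past the threshold in 1200 of the 2493 genes, beside 3959 (33.5%) of all genes, and from fulvestrant in 102 (4.09%). Both comparisons share the combination libraries, and the difference between the counts was not tested.

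Mitosis genes made up 20 of the 35 lowered genes that fell by more than the sum of both drugs. All 71 tested members of a list of mitotic kinases, cyclins, kinetochore, spindle and cytokinesis genes fell with abemaciclib and with fulvestrant, and 59 of 71 fell further when abemaciclib was added to fulvestrant. The interaction was negative for 20 and positive for 9, against 11.6% and 9.49% over all genes tested. The list's median log2 change was -1.99 with abemaciclib, -3.22 with fulvestrant and -5.92 with both.

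*TOP2A*, the topoisomerase that untangles chromosomes, was counted at 1884, 1750.5 and 1767 CPM in the 3 DMSO libraries, 360.3, 359 and 399.7 with abemaciclib, 167, 145 and 187 with fulvestrant and 14.4, 16.7 and 10.9 with both. No 2 groups overlapped, and the combination lay below its additive level of 34.5 CPM in each library, with an interaction of -1.30 ± 0.15 (log2, SE, edgeR adjusted p = 8.0e-07). *MKI67*, which encodes the proliferation antigen Ki-67, stood at 569, 498 and 466 CPM in DMSO, 51.4, 51.4 and 59.6 with abemaciclib, 44.5, 41.2 and 45.6 with fulvestrant and 2.41, 2.48 and 1.75 with both, where 4.64 would have been additive (interaction -1.06, edgeR adjusted p = 0.00134). The abemaciclib and fulvestrant libraries of *MKI67* lay side by side without overlap, and the combination was far below both. *PTTG1* encodes securin, which restrains sister chromatid separation. Its levels were 364, 377 and 346 CPM in DMSO, 54.4, 58.3 and 61.7 with abemaciclib, 32.9, 30.5 and 27.8 with fulvestrant and 0.722, 1.24 and 1.94 with both, against 4.87 for additivity (interaction -1.83, edgeR adjusted p = 1.1e-05). *UBE2C*, the ubiquitin-conjugating enzyme of the anaphase-promoting complex, fell from 115, 138 and 156 CPM in DMSO to 0, 0.414 and 1.17 with both, and its interaction was -3.05 (edgeR adjusted p = 2.7e-05). The kinase genes *PLK1* (-1.79) and *CDK1* (-1.67), the survivin gene *BIRC5* (-1.92) and the cyclin gene *CCNB2* (-1.61) also had negative interactions past the threshold.

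**Figure D3:**
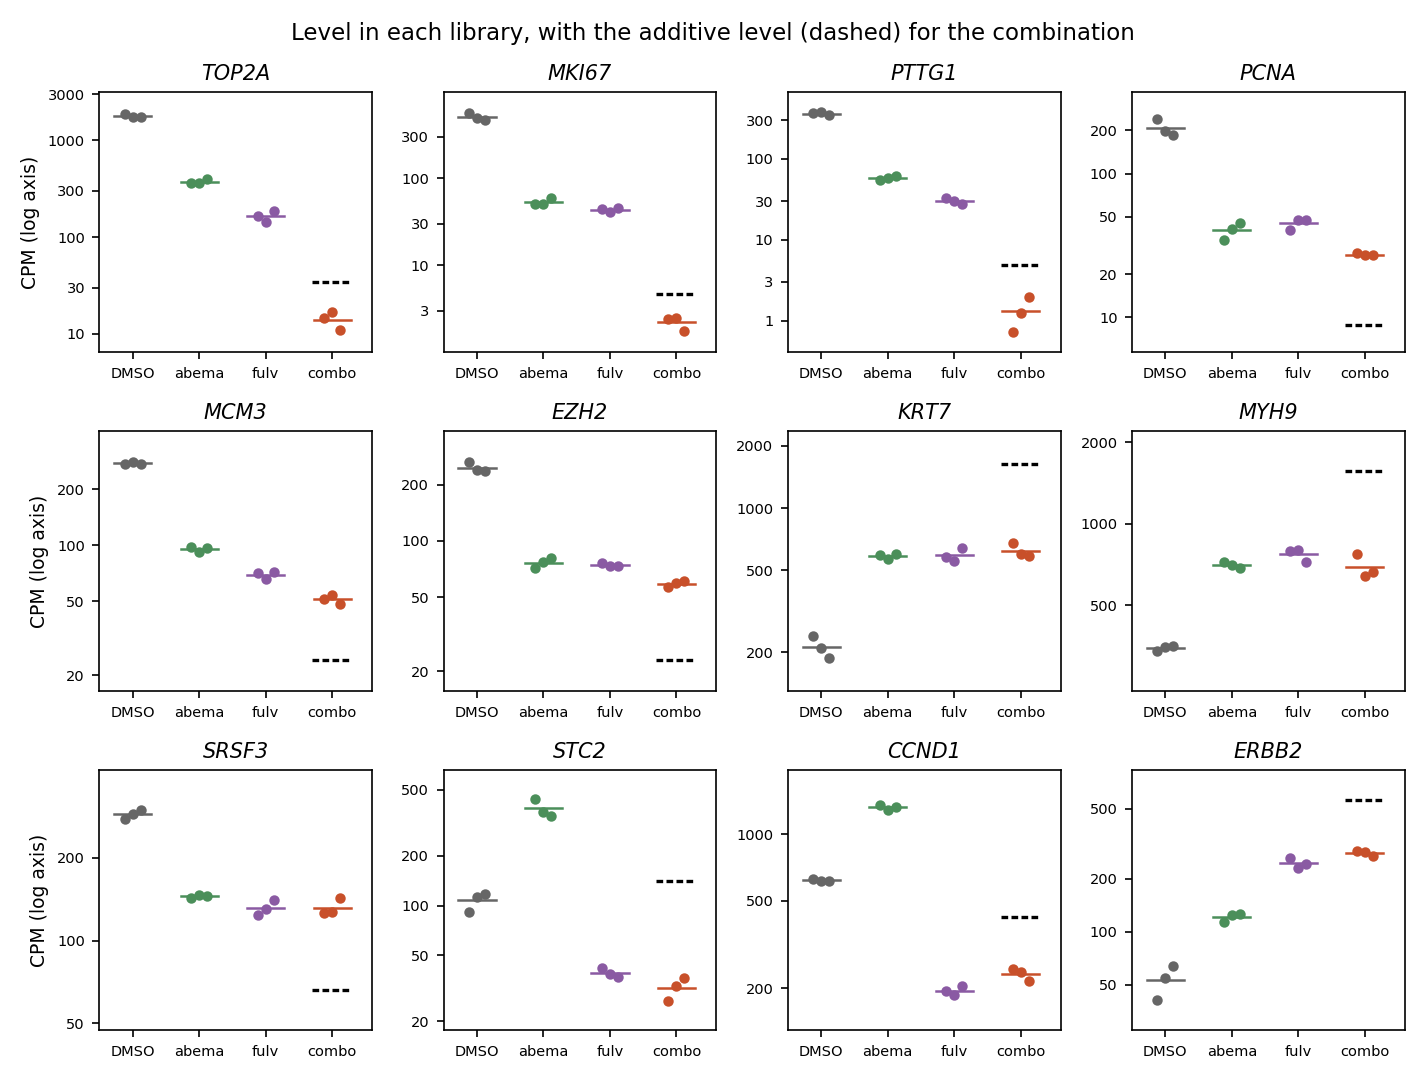
Level of 12 named genes in each library, in CPM on a log axis that differs between panels, for DMSO, abemaciclib (abema), fulvestrant (fulv) and the combination (combo). Points are libraries, short lines the mean of 3 libraries, and the dashed line the additive level for the combination. The combination lies below the dashed line for *TOP2A*, *MKI67* and *PTTG1*, above it for *PCNA*, *MCM3*, *EZH2* and *SRSF3*, and below it but near fulvestrant for *KRT7*, *MYH9*, *STC2*, *CCND1* and *ERBB2*.

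Many mitosis genes were no longer counted in the combination. In 23 of the 71 no combination library held more than 3 counts, a level taken as the floor (0.642 CPM on average), so their fitted interactions are not sizes. Among all genes, 20 called genes were at the floor in the combination alone, and for 15 of them the additive level lay above the floor. *MYBL2*, a transcription factor of the complex that switches on late cell cycle genes, is the clearest of them. Its levels were 219.9, 264 and 271 CPM in DMSO, 88.4, 85.2 and 79.3 with abemaciclib and 28.4, 22.8 and 20.3 with fulvestrant, and the combination libraries held 1 read in all. The additive level was 8.00 CPM, so the combination was at least 12.5-fold lower than additive. The lower bound was 4.17-fold for the kinesin gene *KIF4A* and 1.74-fold for the condensin gene *NCAPG*. These bounds, here and below, take the additive level as exact and leave out its own sampling error. For *NCAPG* that level was only 1.12 CPM, so small bounds are uncertain. For *CCNA2*, the cyclin of S phase and G2, the additive level of 0.62 CPM was itself under the floor, no bound can be given, and the call was lost in 9 of 18 alternative analyses. Without the genes at the floor the median interaction of the list moved from -0.66 to -0.10, and with them at their bounds it was -0.12. Among genes with at least 10 counts in every library, a filter that removes those that fell most, 2 mitosis genes had a negative interaction and the list's median was 0.41.

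The log2 scale matters for these genes. On the CPM scale, where differences rather than folds would add, the sum of both falls goes below 0 for a gene that each drug lowers strongly, and the interaction then takes the other sign. All 35 genes that both drugs lowered and that were more than additive on the log2 scale had a positive interaction in CPM, and 38 of the 2493 called genes changed sign in all, 3 of them less than additive.

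The other 9 called mitosis genes went the opposite way. The condensin subunit gene *SMC4* was at 422, 365 and 372 CPM in DMSO, 85.8, 90.7 and 107 with abemaciclib, 66.5, 52.2 and 63.6 with fulvestrant and 32.0, 32.5 and 27.4 with both, above its additive level of 14.9 (interaction 1.04, edgeR adjusted p = 1.4e-05). It still fell past the threshold when abemaciclib was added to fulvestrant. The mitotic kinesin gene *KIF15* was at 37.99, 28.7 and 27.7 CPM in DMSO, 6.603, 6.62 and 9.60 with abemaciclib, 3.46, 0.564 and 3.42 with fulvestrant and 4.33, 2.07 and 2.72 with both, with an interaction of 2.25 (edgeR adjusted p = 0.00193). Here the combination overlapped fulvestrant alone, and the additive level of 0.6 CPM was under the floor. The others were *AURKA*, *KIF20B*, *CENPU*, *SMC2*, *KIF22*, *NCAPD2* and *INCENP*.

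DNA replication genes, most of which both drugs also lowered, had more positive than negative interactions. Of 27 origin licensing and firing genes, 24 fell in each drug alone, and the interaction was positive for 11 and negative for 1. Among 40 genes of the polymerases, the sliding clamp, the fork and deoxynucleotide supply, 38 fell with abemaciclib and 40 with fulvestrant, with 22 positive and 2 negative interactions. The median interactions were 0.80 and 0.78, beside -0.01 over all genes. When abemaciclib was added to fulvestrant 8 genes of each list fell, beside 1.63% of all genes and 59 of 71 for mitosis, and the difference between the lists was not tested.

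*PCNA*, the sliding clamp, was at 241, 199 and 185 CPM in DMSO, 34.6, 41.3 and 45.5 with abemaciclib, 40.8, 47.4 and 47.4 with fulvestrant and 27.9, 27.1 and 27.0 with both. The combination was lowest but its mean was 3.11 times its additive level of 8.77 CPM (interaction 1.64 ± 0.17, edgeR adjusted p = 6.4e-08). *MCM3*, a subunit of the replicative helicase, was at 272, 279 and 274 CPM in DMSO, 98.2, 92.3 and 97.0 with abemaciclib, 70.7, 65.7 and 71.8 with fulvestrant and 51.5, 53.8 and 48.5 with both, with an interaction of 1.08 (edgeR adjusted p = 1.7e-07). Its 4 groups did not overlap, and abemaciclib lowered it by 1.52 without fulvestrant and by 0.44 with it, on the log2 scale. *DUT*, which removes dUTP from the nucleotide pool, was at 474, 471 and 464 CPM in DMSO, 129, 138 and 155 with abemaciclib, 181, 176 and 157 with fulvestrant and 125, 133 and 126 with both. The combination overlapped abemaciclib alone and lay below fulvestrant past the threshold (-0.42, edgeR adjusted p = 0.00328). *PRIM1*, the primase subunit, had one of the largest positive interactions (2.56, edgeR adjusted p = 8.4e-06), with 23.2, 29.3 and 22.3 CPM in DMSO, 5.602, 5.74 and 4.80 with abemaciclib, 5.44, 5.92 and 2.51 with fulvestrant and 5.77, 5.79 and 5.83 with both. The fulvestrant libraries overlapped both other treated groups, and the combination did not differ from either drug past the threshold. *GMNN* (1.83), *MCM5* (1.44), *MCM7* (1.11), *POLD3* (1.49) and the maintenance methyltransferase gene *DNMT1* (0.97) also had positive interactions past the threshold.

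The other 3 called replication genes followed mitosis instead. The ribonucleotide reductase subunit *RRM2* and the initiation factor *MCM10* were at the floor in the combination, at least 2.48-fold and 1.80-fold below their additive levels, and the histone chaperone *ASF1B* had an interaction of -0.98. The thymidine kinase gene *TK1* also kept falling, from 84.6, 83.4 and 70.7 CPM in DMSO to 12.4, 9.93 and 8.84 with abemaciclib, 6.92, 8.46 and 7.52 with fulvestrant and 1.203, 0.62 and 0.583 with both. This is close to its additive level of 0.997 CPM, with an interaction of -0.32 ± 0.39 that was not past the threshold (edgeR adjusted p = 0.606).

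**Figure D4:**
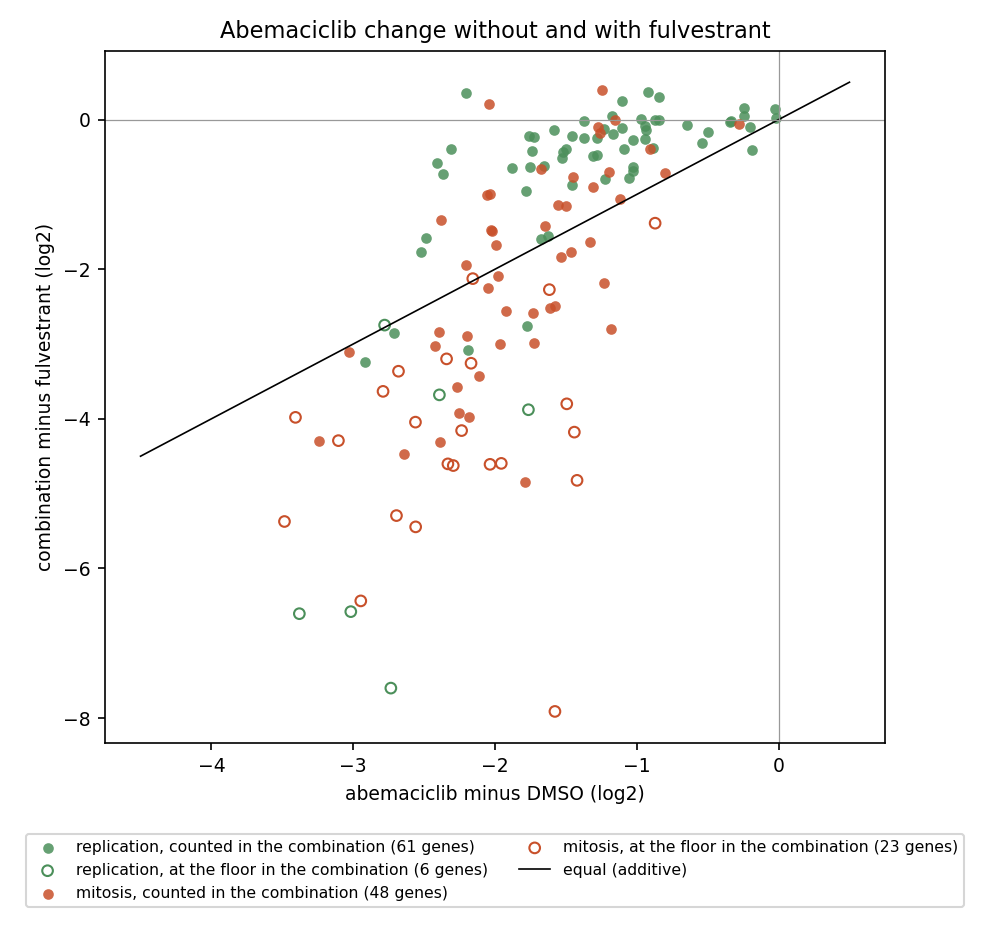
Log2 change made by abemaciclib with fulvestrant present (combination minus fulvestrant, vertical axis) against its change without fulvestrant (abemaciclib minus DMSO, horizontal axis), for genes of mitosis (orange) and of DNA replication (green). The line marks equal changes, the vertical distance from it is the interaction, and open circles are genes at the floor in the combination, whose position depends on the fit. Most replication genes lie above the line near 0 on the vertical axis, and many mitosis genes lie below it.

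Promoter letters were read for these lists because CHR and E2F elements are known to mark them. The table of RefSeq promoter windows (250 bases before to 50 after each start, GRCh38.p14) held at least 1 window for 59 of the 71 mitosis genes and 57 of the 67 replication genes. CHR letters (TTTGAA or TTCGAA, both strands) were in a window of 47 mitosis genes (79.7%) and of 7 replication genes (12.3%), and of 19.5% of all genes with a window. E2F letters (TTTCCCGC, TTTGGCGC, TTTCGCGC or TTTGCCGC, both strands) were in 4 mitosis genes (6.78%) and 26 replication genes (45.6%), and in 3.99% of all genes. CCAAT, on both strands, was in 81.4%, 56.1% and 39.7%. Among the genes tested for an interaction, of which 77.5% had a window, the shares were 14.9% for CHR, 6.96% for E2F and 44% for CCAAT, so the mitosis share of E2F letters was near theirs. Within the mitosis list, CHR letters were in 7 of the 8 genes with a window and a positive interaction and in 11 of 16 with a negative one, E2F letters in 2 and 1, and CCAAT in 5 and 13. For the larger sets of called genes fewer than 80% had a window, so no shares are given for them. A match is a description of letters and not of a bound site.

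The 100 bases directly before the start are shown for 4 mitosis genes with a negative interaction, which carry CHR letters. Also shown are 1 mitosis gene and 2 replication genes with a positive interaction, which carry E2F letters. These are picked examples that hold such letters, and many called genes of both lists do not. The same stretch holds no CHR letters for *TOP2A*, *MYBL2* and *CCNA2*, and no E2F letters for *MCM3*, *PRIM1* and *DNMT1*. Capitals mark E2F, CHR and CCAAT letters on either strand, and letters adjoin in *KIF15* (E2F and CHR) and overlap in *MKI67* (CHR and CCAAT) and in *MCM6* (a pair of E2F matches on opposite strands).
CCNB2, chr15:59105046-59105145, plus strand: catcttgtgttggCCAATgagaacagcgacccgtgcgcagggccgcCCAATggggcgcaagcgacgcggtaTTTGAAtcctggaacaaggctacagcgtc
PLK1, chr16:23678789-23678888, plus strand: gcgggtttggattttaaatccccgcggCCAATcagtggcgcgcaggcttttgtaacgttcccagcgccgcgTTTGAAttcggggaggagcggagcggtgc
KIF4A, chrX:70290004-70290103, plus strand: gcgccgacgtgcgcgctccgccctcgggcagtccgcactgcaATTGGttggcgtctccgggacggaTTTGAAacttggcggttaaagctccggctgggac
MKI67, chr10:128126424-128126523, minus strand: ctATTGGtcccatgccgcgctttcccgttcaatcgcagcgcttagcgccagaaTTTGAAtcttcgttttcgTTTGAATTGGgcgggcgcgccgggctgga
KIF15, chr3:44761694-44761793, plus strand: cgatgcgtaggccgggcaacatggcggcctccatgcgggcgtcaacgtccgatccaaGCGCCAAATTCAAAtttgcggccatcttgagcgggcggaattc
MCM6, chr2:135876444-135876543, minus strand: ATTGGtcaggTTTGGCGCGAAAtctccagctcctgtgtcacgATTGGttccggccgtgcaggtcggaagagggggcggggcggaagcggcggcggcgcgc
RFC3, chr13:33818049-33818148, plus strand: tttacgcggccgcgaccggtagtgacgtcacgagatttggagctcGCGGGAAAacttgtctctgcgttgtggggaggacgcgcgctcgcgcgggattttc
The interactions of these genes were -1.61 for *CCNB2*, -1.79 for *PLK1*, -1.06 for *MKI67*, 2.25 for *KIF15*, 1.54 for *MCM6* and 0.86 for *RFC3*, and *KIF4A* was at least 4.17-fold below additive.

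Regulators of G1 and of chromatin in dividing cells were less than additive in both directions. Among 35 cell cycle control genes, 12 had a positive interaction and 3 a negative one. *CDKN1A*, which encodes the CDK inhibitor p21, was at 13.9, 16.7 and 15.1 CPM in DMSO, 46.2, 48.1 and 44.7 with abemaciclib, 132, 142 and 122 with fulvestrant and 119, 111 and 118 with both. The additive level would have been 401 CPM (interaction -1.78 ± 0.15, edgeR adjusted p = 2.1e-09), and the combination lay just below fulvestrant alone. The CDK4/6 inhibitor gene *CDKN2B* was likewise raised by each drug, to 28.8, 28.5 and 23.2 CPM with abemaciclib, 33.6, 29.6 and 31.7 with fulvestrant and 31.0, 43.2 and 38.4 with both, from 6.53, 7.60 and 7.44 in DMSO (interaction -1.64). *SKP2*, which targets p27 for destruction, went the other way, from 38.3, 51.5 and 46.9 CPM in DMSO to 18.0, 18.8 and 16.4, 20.01, 22.0 and 14.1 and 21.7, 15.3 and 17.5 in the same order. The histone methyltransferase gene *EZH2*, an E2F target, was at 265, 240.4 and 236 CPM in DMSO, 71.8, 77.0 and 80.9 with abemaciclib, 76.1, 73.1 and 73.6 with fulvestrant and 56.8, 59.5 and 61.0 with both (interaction 1.36, edgeR adjusted p = 6.9e-09). *RB1*, which encodes Rb, did not pass the test (interaction -0.37 ± 0.29, edgeR adjusted p = 0.409), nor did the histone demethylase gene *KDM5A* (-0.11 ± 0.12, edgeR adjusted p = 0.555).

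Recombination repair genes had 7 positive and no negative interactions among 40 tested (17.5% called, beside 21.1% of all genes), with a median of 0.49. *BARD1*, the partner of BRCA1, was at 62.9, 60.2 and 63.3 CPM in DMSO, 17.2, 16.1 and 21.5 with abemaciclib, 13.6, 13.5 and 10.9 with fulvestrant and 12.8, 6.41 and 10.7 with both (interaction 1.42, edgeR adjusted p = 2.3e-04). The p53 target list had 7 negative interactions and 1 positive among 18. Of these, *TP53INP1* rose from 9.498, 13.9 and 10.3 CPM in DMSO to 35.01, 39.5 and 39.7 with abemaciclib, 68.4, 82.1 and 70.4 with fulvestrant and 79.4, 82.9 and 79.6 with both, where fulvestrant and the combination overlapped. The histone gene *H4C3* had an interaction of 2.50 (edgeR adjusted p = 0.00238), with 1278, 1027 and 809 CPM in DMSO, 89.6, 77.0 and 103 with abemaciclib, 99.6, 109.7 and 184 with fulvestrant and 78.2, 58.3 and 57.3 with both. Replication-dependent histone transcripts mostly lack a poly(A) tail, and the library kit primes on poly(A).

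Of 49 ER target genes tested, 28 rose and 7 fell with abemaciclib, while 6 rose and 33 fell with fulvestrant. For 16 of the 49 abemaciclib raised and fulvestrant lowered the transcript, which held for 0.754% of all genes, and none moved the reverse way. A further 6 rose and 7 fell with both drugs. The interaction was negative for 15 and positive for 5, with a median of -0.37. When abemaciclib was added to fulvestrant 1 of the 49 changed past the threshold, which is near the 1.92% of all genes. The median of that difference was 0.02. Low counts limit this comparison, since 6 of the 49 had a group at the floor (no library above 3 counts). *TFF1*, for example, held 7, 7 and 3 counts with fulvestrant. Against abemaciclib alone, 42 of the 49 were lower in the combination and 1 was higher. Of all 11803 genes, 2088 were lower and 1871 higher. For genes moved in opposite directions, whether an interaction counts as less or more than additive depends on which drug moved the gene farther, so the levels are the better guide.

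*CCND1*, which encodes cyclin D1, was at 624, 616 and 613 CPM in DMSO, 1359.9, 1289 and 1332 with abemaciclib, 195, 186 and 205 with fulvestrant and 244, 237 and 215 with both. Abemaciclib alone raised it by 1.10 on the log2 scale, and with fulvestrant present the difference was 0.25, which was not past the threshold (interaction -0.86 ± 0.10, edgeR adjusted p = 6.6e-07). *STC2*, a secreted glycoprotein induced by oestrogen, showed the same order with 91.4, 113 and 118 CPM in DMSO, 439, 369 and 347 with abemaciclib, 42.2, 38.4 and 37.1 with fulvestrant and 26.5, 32.7 and 36.7 with both (interaction -2.12, edgeR adjusted p = 6.3e-09). *TFF1*, the trefoil factor used as a marker of ER activity, was at 62.3, 57.2 and 62.0 CPM in DMSO, 367, 383 and 395 with abemaciclib, 1.73, 1.97 and 0.684 with fulvestrant and 1.92, 2.89 and 2.14 with both. Its interaction was -1.95 (edgeR adjusted p = 8.3e-04), and the fulvestrant and combination libraries hold few reads. All 3 genes lay in the combination near the level of fulvestrant alone and far below that of abemaciclib.

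Other ER targets behaved in different ways. *GREB1*, a cofactor of ER, was at 86.1, 79.8 and 77.5 CPM in DMSO, 122, 130.5 and 129 with abemaciclib, 4.45, 3.95 and 5.47 with fulvestrant and 6.98, 8.89 and 7.18 with both, with an additive level of 7.25 CPM and an interaction of 0.07 ± 0.22 (edgeR adjusted p = 0.881). The progesterone receptor gene *PGR* had an interaction of 0.72 ± 0.58 (edgeR adjusted p = 0.411), at 0.988, 0.564 and 0.228 CPM with fulvestrant and 1.44, 2.69 and 1.17 with both. *CTSD*, the lysosomal protease cathepsin D, was raised by both drugs, at 159, 176 and 191 CPM in DMSO, 410.2, 417 and 388 with abemaciclib, 297, 321 and 229.7 with fulvestrant and 277, 268 and 262 with both (interaction -1.28, edgeR adjusted p = 1.4e-07). *ESR1* itself had an interaction of -0.37 ± 0.13 (edgeR adjusted p = 0.0434), a call that was lost in 10 of 20 alternative analyses, DESeq2 among them.

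Across all genes, 89 rose with abemaciclib while fulvestrant lowered them, and 40 of these had a negative interaction and none a positive one. In those 40 the combination was below abemaciclib past the threshold in every one, at a median of -0.91 against DMSO beside -0.67 with fulvestrant. The 40 were chosen by the interaction, which by itself places the combination lower. Their median difference from fulvestrant was -0.08, with 3 past the threshold. Over all 89 genes the medians were 0.68 with abemaciclib, -0.91 with fulvestrant and -0.91 with both. *MUCL1*, a small breast mucin, was at 54.6, 60.1 and 51.3 CPM in DMSO, 188, 194 and 209.7 with abemaciclib, 16.8, 13.3 and 16.4 with fulvestrant and 21.9, 15.7 and 19.4 with both. *SEC14L2*, a lipid-binding protein, followed it with 23.2, 25.7 and 25.8, 104, 77.3 and 100.1, 12.4, 13.5 and 14.6 and 12.0, 14.1 and 13.4 CPM. The reverse class, which fell with abemaciclib and rose with fulvestrant, had 43 genes and 20 positive interactions. *ID2*, an inhibitor of basic helix-loop-helix factors, was at 395, 366 and 366 CPM in DMSO, 256, 220.1 and 239 with abemaciclib, 701, 606 and 741 with fulvestrant and 605, 679 and 712 with both (interaction 0.62, edgeR adjusted p = 4.0e-04). The combination overlapped fulvestrant for *MUCL1*, *SEC14L2*, *TFF1* and *ID2*, whereas it was lower in every library for *STC2* and higher in every library for *CCND1*. The calcium-binding protein gene *PVALB* was an exception of the reverse class, with 11.6, 11.4 and 8.89 CPM in DMSO, 1.40, 0.221 and 0.505 with abemaciclib, 14.1, 14.7 and 16.4 with fulvestrant and 7.94, 8.48 and 7.77 with both, and it fell past the threshold when abemaciclib was added to fulvestrant.

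Luminal and structural genes often rose with either drug alone. Of 17 luminal keratins and transcription factors, 11 rose with abemaciclib and 10 with fulvestrant, and the interaction was negative for 10 and positive for 1. *KRT7* was at 240.4, 210.0 and 188 CPM in DMSO, 595, 564 and 599 with abemaciclib, 582, 552 and 644 with fulvestrant and 678, 598 and 584 with both. All treated libraries exceeded all DMSO libraries, the treated groups overlapped, and 1632 CPM would have been additive (interaction -1.40 ± 0.12, edgeR adjusted p = 5.4e-09). *KRT80* and *KRT19* had interactions of -2.11 and -0.83. The tubulin, actin and myosin list had 21 negative and 1 positive interaction among 34 (64.7% called). Its median change was 0.67 with abemaciclib, 0.69 with fulvestrant and 0.62 with both. *MYH9*, the heavy chain of non-muscle myosin, was at 338, 351 and 353 CPM in DMSO, 722, 705 and 687 with abemaciclib, 795, 802 and 725 with fulvestrant and 776, 644 and 664 with both (interaction -1.18, edgeR adjusted p = 1.1e-08). *TUBB2A* had the smallest p of that list, at 58.8, 53.8 and 52.1 CPM in DMSO, 169, 169 and 177 with abemaciclib, 111, 124 and 119.9 with fulvestrant and 117, 109 and 127 with both, so abemaciclib alone gave the highest level. *MYL9* (-1.34) was lower in the combination than with fulvestrant past the threshold. Junction and adhesion genes had 12 negative and 1 positive interaction among 37, with the tight junction gene *CLDN4* (-0.77) and the integrin gene *ITGB5* (-0.90) among them.

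**Figure D5:**
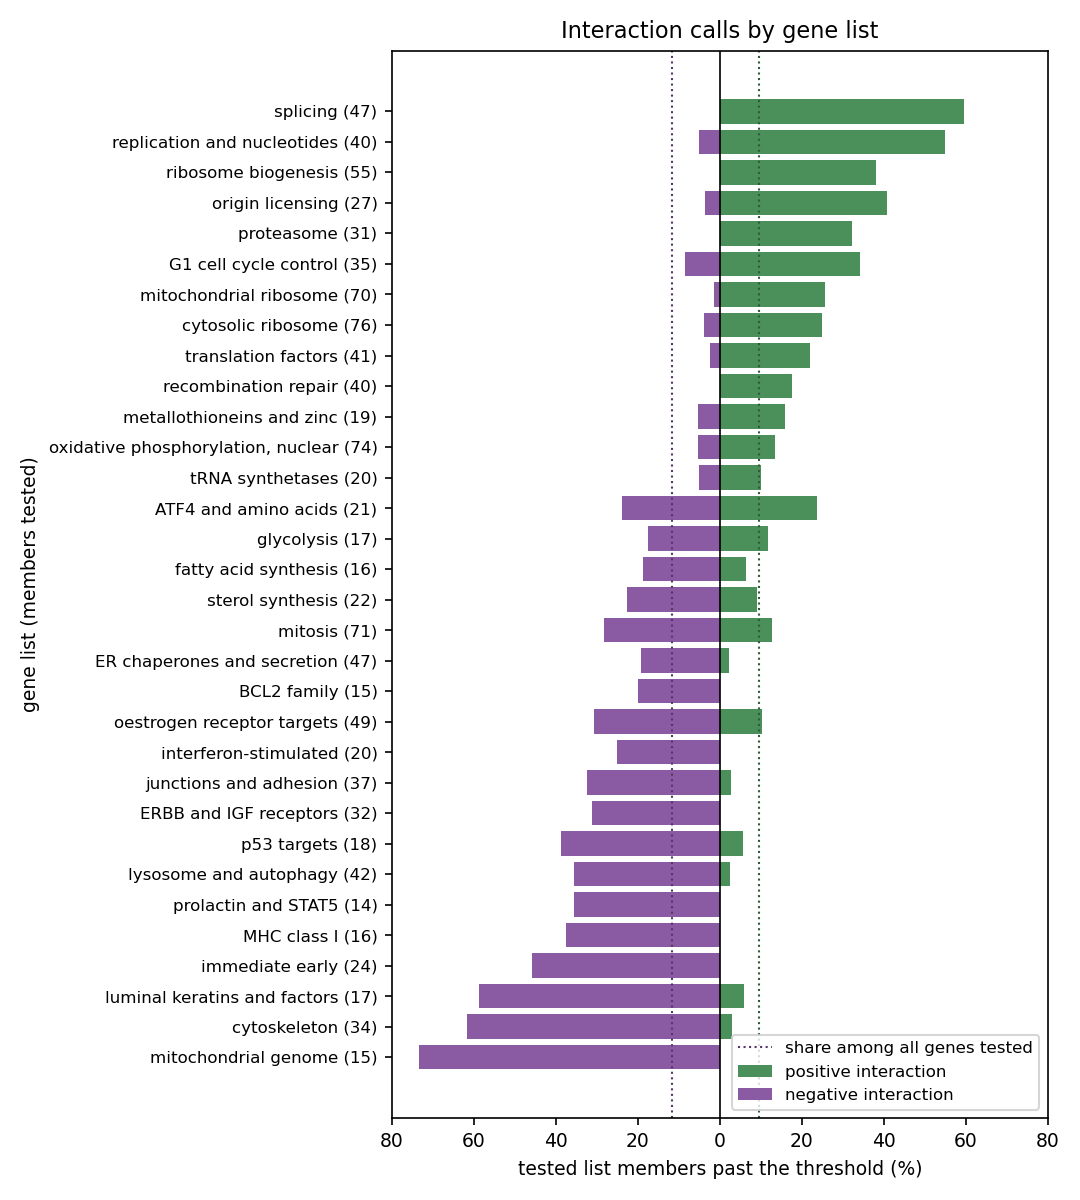
Share of tested members of each of 32 gene lists with a negative (purple, to the left) or positive (green, to the right) interaction past the threshold, with the number tested in brackets. Dotted lines mark the shares among all genes tested, 11.6% negative and 9.49% positive. Splicing and replication lie at the top, with mostly positive calls, and the cytoskeleton and the mitochondrial genome at the bottom, with mostly negative calls.

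Of 47 splicing genes, which process precursor RNA, 34 fell with each drug, and the list had 28 positive and no negative interactions, with medians of -0.48 with abemaciclib, -0.55 with fulvestrant and -0.53 with both. *SRSF3*, a splicing regulator, was at 276, 289 and 297 CPM in DMSO, 143, 147 and 145 with abemaciclib, 124, 129.8 and 140.2 with fulvestrant and 125, 127 and 143 with both (interaction 0.99 ± 0.11, edgeR adjusted p = 3.4e-07). Its fulvestrant and combination libraries overlapped, and the additive level would have been 66.2 CPM. Ribosome biogenesis genes had 21 positive and no negative interactions among 55. The nucleolar methyltransferase *FBL* was at 752, 746 and 711 CPM in DMSO, 385, 333 and 364 with abemaciclib, 295, 272 and 343 with fulvestrant and 326, 287 and 303 with both, and *NOP56*, a core protein of the same particles, had an interaction of 1.48. Cytosolic ribosomal proteins had smaller interactions, with 19 positive and 3 negative among 76 (28.9% called) and a median of 0.16. The transcripts themselves fell, at medians of -0.27 with abemaciclib, -0.76 with fulvestrant and -0.91 with both. *RPS16* was at 1985, 1923 and 1915 CPM in DMSO, 1131, 1082 and 1162 with abemaciclib, 782, 756 and 839.6 with fulvestrant and 714, 715 and 726 with both. Between the combination and abemaciclib alone, 72 of the 76 ribosomal protein genes differed past the threshold, and 19 of the 47 splicing genes, beside 33.5% of all genes. Proteasome subunits had 10 positive of 31 (32.3% called) and mitochondrial ribosomal proteins 18 positive and 1 negative of 70 (27.1%). Translation factors had 9 positive and 1 negative of 41, and this 24.4% called is near the 21.1% of all genes. Nuclear-encoded subunits of oxidative phosphorylation were also near that share, with 10 positive and 4 negative of 74 (18.9%).

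Transcripts of the mitochondrial genome were less than additive in the upward direction, with 11 negative interactions among 15 and none positive. Their median change was 0.97 with abemaciclib, 0.92 with fulvestrant and 0.64 with both. *MT-ND5*, a subunit of complex I, was at 2232, 2157 and 2348 CPM in DMSO, 4349, 4303 and 3723 with abemaciclib, 3221, 3976 and 3559 with fulvestrant and 3613, 2749.6 and 2963 with both (interaction -1.08, edgeR adjusted p = 2.5e-06). These transcripts share their strands and take a large part of each library, so the 15 are not independent, and the share of mitochondrial reads in a library given above moved with them.

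Of 24 immediate early factors, 13 rose with abemaciclib and 12 with fulvestrant, beside 20.5% and 25.3% of all genes. None passed the test when abemaciclib was added to fulvestrant, where 1.92% of all genes did. The interaction was negative for 11 and positive for none. *JUN* was at 43.3, 49.98 and 57.5 CPM in DMSO, 92.0, 94.7 and 105 with abemaciclib, 123, 123 and 105 with fulvestrant and 109, 116 and 129.7 with both, while *IER3* rose with abemaciclib only, with 496, 583 and 570.1 CPM in DMSO, 1212, 1116 and 1208 with abemaciclib, 591, 518 and 629.7 with fulvestrant and 583, 644 and 664 with both (interaction -0.98, edgeR adjusted p = 6.0e-07). The abemaciclib rise of *IER3* was thus not seen with fulvestrant present. *SOCS3*, the feedback inhibitor of cytokine receptors, did the same, at 52.0, 60.3 and 61.7 CPM with abemaciclib and 21.2, 22.3 and 21.9 with both, against 16.3, 24.7 and 19.4 in DMSO (interaction -1.43). Receptor genes of the ERBB and insulin families had 10 negative interactions among 32. *ERBB2*, which encodes HER2, was at 41.0, 54.9 and 64.1 CPM in DMSO, 114, 125 and 126 with abemaciclib, 262, 229 and 244 with fulvestrant and 289, 283 and 271 with both. It was highest in the combination, yet under the additive 561 CPM (interaction -0.98 ± 0.14, edgeR adjusted p = 2.0e-05), and the difference from fulvestrant (0.20) was not past the threshold. *PIK3R1*, the regulatory subunit of PI3 kinase, had an interaction of -1.17. The prolactin and STAT5 list had 5 negative of 14 (35.7% called). The BCL2 family had 3 negative of 15, including *MCL1* (-0.79), and this 20% called is near the 21.1% of all genes.

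Lysosome and autophagy genes had 15 negative and 1 positive interaction among 42. The autophagy kinase gene *ULK1* was at 27.9, 35.7 and 35.3 CPM in DMSO, 68.6, 73.9 and 65.4 with abemaciclib, 72.4, 69.1 and 58.3 with fulvestrant and 62.8, 66.8 and 73.6 with both (interaction -1.03, edgeR adjusted p = 3.2e-05). Its treated groups overlapped. Antigen presentation genes of MHC class I had 6 negative of 16 (37.5% called). Interferon-stimulated genes had 5 negative of 20 (25% called), which is near the 21.1% of all genes. The peptide transporter *TAP1* was at 8.31, 14.1 and 9.92 CPM in DMSO, 24.2, 24.7 and 24.8 with abemaciclib, 25.2, 21.2 and 25.1 with fulvestrant and 27.7, 26.3 and 22.1 with both, and *HLA-B* rose with abemaciclib and fell with fulvestrant (interaction -0.56). Secretory pathway genes had 9 negative and 1 positive of 47 (21.3% called), a share near the 21.1% of all genes. *XBP1*, the transcription factor of the unfolded protein response and an ER target, rose with abemaciclib only, at 1135, 1190.2 and 1212 CPM against 767, 804 and 806 in DMSO, 808, 719 and 755 with fulvestrant and 738, 709.6 and 720.2 with both.

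Metabolic lists were mixed in direction. Sterol synthesis had 2 positive and 5 negative of 22, fatty acid synthesis 1 and 3 of 16 and glycolysis 2 and 3 of 17. The ATF4 and amino acid list had 5 and 5 of 21, and tRNA synthetases 2 and 1 of 20. The shares called were 31.8%, 25%, 29.4%, 47.6% and 15% in the same order, beside 21.1% of all genes. *SLC2A1*, the glucose transporter, was more than additive, at 142, 135 and 119 CPM in DMSO, 173, 158 and 180.4 with abemaciclib, 71.7, 66.8 and 60.9 with fulvestrant and 51.2, 51.7 and 48.9 with both (interaction -0.76, edgeR adjusted p = 1.4e-04). Its combination libraries lay below all others, past the threshold against fulvestrant. Metallothionein and zinc genes had 3 positive and 1 negative of 19 (21.1% called), which is the share of all genes. *MT2A*, a metal-binding protein, fell from 405, 411 and 414 CPM in DMSO to 54.4, 60.9 and 61.7 with abemaciclib, 88.2, 109 and 90.5 with fulvestrant and 34.9, 31.2 and 35.9 with both, so it kept falling although it stayed above its additive level of 13.8 CPM (interaction 1.31).

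Among genes counted in every group and reaching 10 CPM in at least 1, the largest negative interactions included genes that abemaciclib raised strongly. *GDF15*, a stress-induced cytokine, was at 2.37, 2.66 and 3.51 CPM in DMSO, 24.2, 26.5 and 31.3 with abemaciclib, 2.22, 4.23 and 3.19 with fulvestrant and 0.962, 4.55 and 1.75 with both (interaction -3.59 ± 0.52, edgeR adjusted p = 1.5e-05). The rise was not seen with fulvestrant present. *DHRS2* (-3.57), *AQP3* (-3.35, SE 0.73), *RAI2* (-3.32) and *KCNK15* (-3.11) followed. Some groups of these genes held few reads, so the sizes are uncertain. *RAI2*, for example, held 3, 6 and 12 counts in DMSO, and *KCNK15* held 4, 6 and 10 with both drugs. *OLFML3*, a secreted matrix protein, had the smallest p of all genes tested, at 23.4, 21.5 and 25.8 CPM in DMSO, 169, 174 and 145 with abemaciclib, 59.5, 69.7 and 49.9 with fulvestrant and 53.4, 48.2 and 53.4 with both (interaction -2.99, edgeR adjusted p = 2.3e-12). Of the largest positive values, *H1-4* (3.40) had an additive level of 0.0755 CPM, which is under the floor, so its size rests on very few reads. *CNTNAP2*, a neurexin-family adhesion protein, had the smallest p among lowered genes with a positive interaction, at 158, 158 and 156 CPM in DMSO, 56.8, 57.2 and 57.4 with abemaciclib, 45.0, 42.3 and 43.8 with fulvestrant and 51.7, 54.4 and 44.7 with both.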

How the data were processed

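RNA of 12 libraries of CAMA-1 cells was read with the QuantSeq 3′ FWD kit. The authors deposited raw counts per gene symbol, made by trimming with BBDuk, aligning to hg38 with STAR and counting with featureCounts 2.0.1 on GENCODE models. Whether counting used the strand is not given in the sources used here, so genes that overlap or have near-identical copies are uncertain. No molecular identifiers are named, so floors cover counting error only. The 44 rows without a gene name held 0 reads and were left out. Groups came from the treatment labels.

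The tests were run with edgeR 4.0.16 in R 4.3.3 (filterByExpr, minimum count 10 and minimum total 15; TMM factors; robust quasi-likelihood F tests in 1 model of 4 group means; Benjamini-Hochberg adjustment over 11803 genes; threshold 0.05) after testing on simulated data. Standard errors were derived from the F statistic. CPM values use TMM-scaled library sizes. The common biological coefficient of variation was 0.0918. An exact test of a single gene, 3 against 3, cannot go below p = 0.1. Replicate numbers did not pair the samples. Alternatives were DESeq2 1.42.0, other scalings and filters, a replicate block and leaving out each library.

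The gene groups and 32 gene lists were chosen with earlier results of these data known. Named genes had an adjusted p under the threshold and reached 10 CPM in a group. They were the 4 with the smallest p per list and per direction class, the 6 largest interactions of each sign among genes off the floor, and 10 genes always given. *ASF1B*, *BIRC5*, *CCNB2*, *CDK1*, *PLK1*, *MCM6*, *RFC3*, *KIF4A*, *NCAPG*, *RRM2*, *MCM10* and genes named without values were added after their values were seen.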

Additional observations from a re-analysis of the deposited data

Results flagged for a closer look

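The response to abemaciclib differed with and without fulvestrant, by the test of the difference itself, for 2493 of 11803 genes tested (edgeR quasi-likelihood test with Benjamini-Hochberg adjustment). At an unadjusted p below 0.05 there were 3932 genes. No explanation was tested.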

How the results depend on the processing

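Of 148 named genes past the threshold, 135 kept the call under each of up to 20 alternatives that refitted the genes (all but the minimum size), and 13 lost it under at least 1. *GREB1*, not past the threshold, ranged from -0.062 to 0.213 when 1 library was left out, and took the other sign without fulvestrant replicate 2 (-0.026) and without combination replicate 2 (-0.062). DESeq2 called 2107 genes, 2042 of them among the 2493, with 97.4% less than additive. Requiring a size of at least 1 left 795 genes, 295 positive, 500 negative, 756 less and 39 more than additive, and 20 positive replication genes. Requiring 10 counts in every library, which by construction removes genes that fell to the floor, left 33 genes more than additive and 2 mitosis genes with a negative interaction, and gave medians of 0.41 for mitosis, 1.06 for origin licensing and 0.84 for replication. Leaving out genes at the floor in any group left 10 negative mitosis genes, with medians of -0.10 for mitosis and 0.91 for licensing. The mitosis median was -0.75 in DESeq2. With no filter, the medians were -0.46 for ER targets and -0.79 for the cytoskeleton. The cause of the last 3 shifts was not tested.

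Leaving out 1 library at a time gave 1982 to 3318 called genes and 48 to 99 more than additive. Both maxima came without fulvestrant replicate 3. Medians ranged from -0.81 to -0.45 for mitosis, 0.71 to 0.84 for licensing, 0.67 to 0.84 for replication, -0.40 to -0.30 for ER targets, 0.45 to 0.55 for splicing, -0.78 to -0.70 for the cytoskeleton, -1.37 to -1.02 for the mitochondrial genome and -1.01 to -0.65 for immediate early genes. With the replicate block 2438 genes were called, 2362 of them among the 2493, although same-numbered samples did not deviate together (correlations of -0.21 to 0.12). Depth limits the mitosis genes most, since 23 of 71 were at the floor in the combination.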
